A study of Rattus norvegicus with 20 samples.

Results

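Kidney cortex and left ventricle from 5 vehicle-treated rats were compared gene by gene, with both organs taken from the same animals. The 10 libraries are the vehicle libraries among the 20 of the series. They were chosen by their labels: 5 kidney libraries and 5 heart libraries, paired by the animal numbers RB030 to RB034. The animals were male rats with the genotype label WT from a hypertension study. The strain is not named. All of them were 8 weeks old when telemeters were implanted, ate a diet with 4% NaCl for 3 weeks, and received vehicle from a subcutaneous osmotic minipump. The other 10 libraries come from 5 rats that received Maresin 1 (MaR1), a lipid mediator that macrophages derive from docosahexaenoic acid. It was given at up to 1.3 µg/kg/day from the same kind of pump. Every group ate the high-salt diet, so no value below compares salt with a normal diet. Each value is FPKM, fragments per kilobase of gene scaled by library size, from poly-A-selected RNA. Where 5 values stand in a row they are in the order of the rats RB030, RB031, RB032, RB033 and RB034.

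The kidney cortex filters blood in its glomeruli and then recovers most of the filtrate in the proximal tubule, an epithelium that carries out bulk transport, gluconeogenesis and peroxisomal metabolism. The thick ascending limb, the distal tubule and the collecting duct then set how much salt, water and acid leaves the body. The left ventricle is built of cardiomyocytes, in which calcium released from the sarcoplasmic reticulum makes thick and thin filaments slide. Cardiomyocytes burn mainly fatty acids and lactate in densely packed mitochondria. High salt with hypertension loads both organs.

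Between 19383232 and 30342034 fragments per library were assigned, and 12104 to 12508 genes reached 1 FPKM in each. A gene of 1 kb at 1 FPKM thus rested on 20 to 34.9 fragments. The organ labels matched the contents. The 21 measured proximal tubule genes summed to 3896 to 6195 FPKM in the kidneys and 282 to 328 FPKM in the hearts. Most of the heart sum was Aqp1, a gene also of capillary endothelium, at a mean of 286 FPKM. The 29 sarcomere genes summed to 90.2 to 152 and 25594 to 36330.1 FPKM. Some libraries stood apart. Hearts RB031, RB033 and RB034 held transcripts that mark atrial muscle: Myl7, the atrial regulatory light chain, was at 0.318, 225, 1.65, 784 and 529 FPKM in the hearts. Hearts RB033 and RB034 also held matrix genes of valves and tendon, such as Fmod (fibromodulin) at 1.71, 4.9, 1.65, 38.5 and 42.3 FPKM. Among the kidneys, RB030 had the most Hmox1 (haem oxygenase), at 272, 13.7, 12.1, 37.7 and 10.8 FPKM, and the most Havcr1, a tubule injury marker, at 106, 30.1, 21.4, 51.9 and 26.9 FPKM. The comparison was repeated over 2 pairs, without the 3 rats whose hearts held atrial transcripts, and a changed call of a named gene is stated beside it.

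Of 13673 genes with a mean of at least 1 FPKM in either organ, 5464 were higher in the kidney (40.0%) and 5103 were higher in the heart (37.3%) at an adjusted p of 0.05, in limma's paired fit of log2(FPKM + 0.5). A stricter test asked whether the difference exceeded 2-fold, and its calls are used from here on. It called 2018 genes higher in the kidney (14.8%) and 1878 higher in the heart (13.7%). These shares of all genes are the background for the list counts below. A gene with a mean under 1 FPKM in 1 organ entered only through the other organ, so the filter set the direction of such a gene. The median gene differed by 0.03 (log2, kidney minus heart), and the middle 50% of genes lay between -0.69 and 0.69. When every library was scaled to the same FPKM sum instead, the split of those calls was 3442 in kidney and 1221 in heart (73.8% in kidney, against 51.8%). That scaling moves the median gene up by 0.62, since FPKM summed to more in the hearts, where mitochondrially encoded transcripts took 49.6 ± 5.46% of the total against 28.5 ± 2.27% in the kidneys (SD, n = 5; 2-sided exact sign-flip p = 0.0625, the smallest 5 pairs allow). Differences of less than about 1 (log2) thus depend on the scale, and the direction of those is given below only with that limit.

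The largest differences reached about 10 (log2) on the kidney side and 13 on the heart side. A difference of at least 5 was found for 280 genes in the kidney direction and 164 in the heart direction, and one of at least 10 for 2 and 17 genes. The 506 genes with a mean of at least 1 FPKM in kidney and under 0.1 in heart were more numerous than the 288 with the reverse pattern. By contrast, 10924 genes reached a mean of 1 FPKM in both organs. The heart's nuclear transcripts were spread over fewer genes. In each library, 50% of the nuclear FPKM was held by 372 to 458 genes in the hearts and by 579 to 742 in the kidneys, with no overlap (exact sign-flip p = 0.0625).

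**Figure D1:**
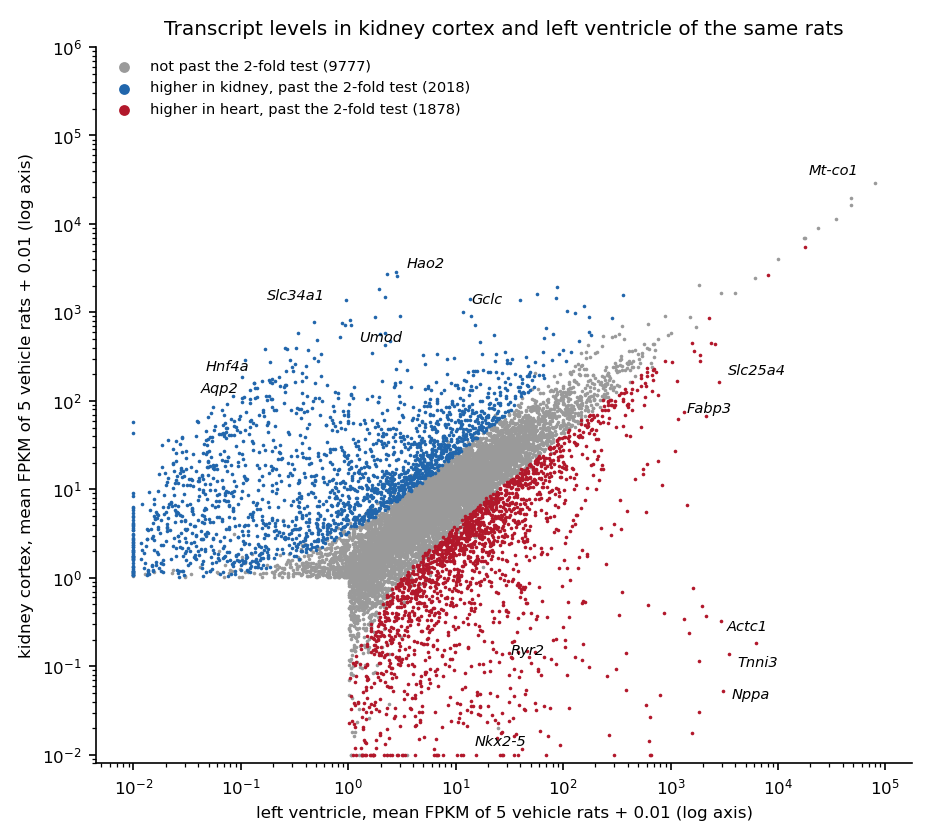
Mean FPKM plus 0.01 of 13673 genes in the left ventricle (x, log axis) and the kidney cortex (y, log axis) of 5 vehicle rats, 1 point per gene. The 2018 genes past the 2-fold test in kidney lie above the diagonal band and the 1878 in heart below it, with mitochondrially encoded Mt-co1 at the top right in both organs.

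Genes of proximal tubule transport and metabolism had the largest list medians of the kidney, and which of the 2 came first depended on the scale. Of the 21 matched genes of this list, 20 were higher in the kidney past the 2-fold test and none in the heart, with a median difference of 7.32 (range 0.84 to 10.03). Slc34a1, the main phosphate carrier of the brush border, was at 1040.4, 1573, 1357, 1326 and 1587 FPKM in the kidneys and at 2.07, 0.304, 0.225, 1.03 and 1.11 FPKM in the hearts. Every kidney was far above every heart, and the difference was 10.03 ± 0.31 (adjusted p = 6.98e-08). Slc22a6, which takes up organic anions from blood, was at 312, 437, 397, 361 and 424 FPKM in the kidneys and 0.425, 0.137, 0, 0.106 and 0.118 FPKM in the hearts (9.22 ± 0.17). Slc13a3, a dicarboxylate carrier, averaged 396 FPKM in kidney and 0.318 FPKM in heart, and Slc22a8, another organic anion carrier, 184 FPKM in kidney and 0.0923 FPKM in heart. Lrp2 and Cubn, the endocytic receptors megalin and cubilin, averaged 161 ± 36.6 and 69 ± 11.9 FPKM in kidney (SD, n = 5) and 0.123 ± 0.0755 and 0.137 ± 0.0685 FPKM in heart. The exception was Aqp1, the water channel of proximal tubule and of capillary endothelium, at 382, 647, 471, 465 and 643 FPKM in the kidneys and 291, 292, 261, 313 and 273 FPKM in the hearts. Its difference of 0.84 ± 0.14 did not pass the 2-fold test (adjusted p = 1), but did with equal FPKM sums (1.49) and with quantile normalization (1.21).

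Transporters for drugs and waste followed the same pattern, 15 of 16 tested genes being higher in the kidney and none in the heart (median 4.23). Slc22a2, the organic cation transporter of the basolateral membrane, was at 67.6, 249, 154, 134 and 226 FPKM in the kidneys and 0.44, 0.0608, 0.209, 0.484 and 0.629 FPKM in the hearts (7.50 ± 0.32). Slco1a6, an organic anion transporter, was at 23.6, 184, 85.9, 84.9 and 195 and 0.22, 0.0492, 0.207, 0.101 and 0.279 FPKM. In both genes kidney RB030 was the lowest and kidneys RB031 and RB034 were the highest, a pattern that returns below. Only Abcb1b, a multidrug efflux pump, was not past the 2-fold test, at 4.86 FPKM in kidney and 2.21 FPKM in heart (0.93 ± 0.14). It passed with equal FPKM sums (1.59), and without the 3 atrial-marked rats the count was 14 of 16, Slc22a7, another organic anion transporter, then not passing (2.06).

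The enzymes of proximal tubule metabolism stood beside the transporters: all 23 tested genes of the 23 matched were higher in the kidney, with a median of 7.28. Pck1 and Fbp1, which encode the committed enzymes of gluconeogenesis, differed by 9.39 ± 0.30 and 9.07 ± 0.24. Pck1 was at 1412, 1516, 1326, 1442 and 1774 FPKM in the kidneys and 3.02, 1.25, 0.362, 1.34 and 5.07 FPKM in the hearts, and Fbp1 at 559, 839, 793, 719.8 and 740.0 and 1.58, 0.691, 0.31, 1.11 and 0.872 FPKM. Hao2, a peroxisomal 2-hydroxyacid oxidase, was at 1780.3, 3035, 3185, 2791 and 3581 FPKM in the kidneys and 4.85, 1.65, 0.901, 2.21 and 4.16 FPKM in the hearts (9.92 ± 0.34). Miox, the first enzyme of inositol breakdown, averaged 1849 FPKM in kidney and 1.94 FPKM in heart (9.68 ± 0.40), and Dao, which oxidises D-amino acids, 764 FPKM in kidney and 0.856 FPKM in heart (9.27 ± 0.32). Gatm, which makes the creatine precursor guanidinoacetate, averaged 1432 ± 166 FPKM in kidney and 13.6 ± 3.08 FPKM in heart (SD, n = 5). At the other end, Ddc, the decarboxylase that makes dopamine, differed least, at 1.67 ± 0.14, with 19.9 FPKM in kidney and 5.9 FPKM in heart. Without the 3 atrial-marked rats Ddc was at 1.39 and not past the 2-fold test, and 21 of the 23 genes passed.

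Other transcripts among the 20 largest differences in the kidney direction were Kap, an androgen-regulated kidney protein gene, Cltrn (collectrin), which helps to place amino acid carriers in the brush border, and Cyp2c23, an arachidonic acid epoxygenase. Kap was at 1055, 3163, 2736, 2270.5 and 3578 FPKM in the kidneys and 4.91, 1.54, 1.13, 2.28 and 4.14 FPKM in the hearts. Cltrn was at 661, 676, 885, 819 and 858 and 1.25, 0.104, 0.198, 0.452 and 0.345 FPKM, and Cyp2c23 at 503, 640.0, 613, 592 and 566 and 0.855, 0.0903, 0.173, 0.278 and 0.271 FPKM. Their differences were 9.64, 9.75 and 9.51. Kap was lowest in kidney RB030 and highest in RB034, whereas Cyp2c23 varied little between the kidneys. Agxt2, Acsm2, Glyat and Sult1c2a, which act in amino acid breakdown and conjugation, differed by 8.78, 9.06, 9.05 and 9.20.

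The salt-transporting segments beyond the proximal tubule were also separated from the heart. Of 18 tested genes of the loop of Henle and distal tubule, 16 were higher in the kidney (median 4.74), as were all 12 of principal cells (4.32) and all 14 of intercalated cells (4.68). Another 3 principal cell genes and 1 intercalated cell gene were below 1 FPKM on average in both organs. Most tested genes of these cells had a heart mean under 1 FPKM and entered the test only through their kidney value. The filter thus largely set the direction of these counts. Umod, which encodes uromodulin of the thick ascending limb, was at 415, 979.9, 652, 579 and 988 FPKM in the kidneys and 0.645, 0.351, 0.0873, 2.96 and 1.17 FPKM in the hearts (9.08 ± 0.38). Slc12a1, the furosemide-sensitive carrier of the same cells, was at 51.1, 90.6, 63.4, 60.4 and 106 FPKM and Slc12a3, the thiazide-sensitive carrier of the distal tubule, at 122, 93.9, 123, 110.5 and 84.2 FPKM in the kidneys. In the hearts their means were 0.102 ± 0.0562 and 0.476 ± 0.242 FPKM (SD, n = 5). The subunits of the epithelial sodium channel, Scnn1a, Scnn1b and Scnn1g, averaged 12.5 ± 1.11, 12.3 ± 1.33 and 11.1 ± 0.55 FPKM in kidney, close to each other, and 0.228 ± 0.0513, 0.0501 ± 0.0477 and 0.0188 ± 0.0202 FPKM in heart. Aqp2, the vasopressin-regulated water channel, was at 112, 147, 91.2, 87.5 and 107 FPKM in the kidneys and 0.254, 0, 0.0352, 0.331 and 0 FPKM in the hearts (7.47 ± 0.19). Among intercalated cell genes, Rhcg, an ammonia channel, and Atp6v1b1, a proton pump subunit, differed by 6.17 ± 0.10 and 6.12 ± 0.09, and Slc26a4 (pendrin), the bicarbonate exchanger of the base-secreting cells, averaged 18.6 ± 3.78 FPKM in kidney and 0.132 ± 0.0928 FPKM in heart. The 2 genes of these lists outside the 2-fold test were the kinase genes Wnk1 (0.59 ± 0.09) and Stk39 (-0.66 ± 0.08), which act on salt carriers in many tissues. Stk39 averaged 6.95 FPKM in kidney and 11.3 FPKM in heart.

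Glomerular genes were more mixed. Of 14 tested, 8 were higher in the kidney and 2 in the heart. Nphs1 (nephrin), a slit diaphragm gene of podocytes, was at 8.11, 7.79, 10.9, 8.4 and 8.9 FPKM in the kidneys and 0.0235, 0.0152, 0.0435, 0.111 and 0.0684 FPKM in the hearts (4.07 ± 0.11), and the organs did not overlap. Col4a4, a type IV collagen of the glomerular filter, averaged 65 FPKM in kidney and 8.36 FPKM in heart (2.91 ± 0.13). The 2 genes higher in the heart were Clic5, a chloride channel family member, with 15.2 FPKM in kidney and 64.3 FPKM in heart, and Plce1, a phospholipase, with 1.67 FPKM in kidney and 7.05 FPKM in heart. Wt1, which marks podocytes in the kidney and mesothelium around the heart, averaged 3.64 FPKM in kidney and 7.93 FPKM in heart (-1.03 ± 0.09, adjusted p = 0.965).

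Transcription factor genes of the nephron followed their cells: 18 of 25 were higher in the kidney and none in the heart. Hnf4a, a nuclear receptor that drives proximal tubule and liver genes, was at 129, 224, 155, 163 and 209 FPKM in the kidneys and 0.296, 0.0986, 0.103, 0.11 and 0.314 FPKM in the hearts (8.00 ± 0.15). Tfcp2l1, a factor of distal tubule and collecting duct, varied little between kidneys, at 52.5, 56, 52.8, 53 and 54.2 FPKM, against 0.127, 0.118, 0.214, 0.159 and 0.201 FPKM in the hearts. Pax8 and Pax2, paired-box factors of the renal lineage, averaged 33.2 ± 4.4 and 11.2 ± 1.98 FPKM in kidney and 0.121 ± 0.0348 and 0.01 ± 0.0139 FPKM in heart (SD, n = 5). The 7 factors that did not pass the 2-fold test included Nr3c2, the mineralocorticoid receptor, with 5.2 FPKM in kidney and 5.95 FPKM in heart (-0.18 ± 0.08) and Ppara, a fatty acid receptor, with 14.9 FPKM in kidney and 13 FPKM in heart. Esrrb was the 1 of the 7 with its larger values in the heart by more than 1 (log2), at -1.24 ± 0.16. Without the 3 atrial-marked rats it passed the test in the heart (-1.69).

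The Hox genes, which record position along the body axis, were all on the kidney side. All 24 tested Hox genes were higher in the kidney (median 3.12, range 1.59 to 5.50), and 5 of the 29 matched were below 1 FPKM in both organs. Nearly all had a heart mean under 1 FPKM and entered the test only through their kidney value, so the filter largely set this direction. The same applies to other listed genes with a mean under 1 FPKM in 1 organ. Hoxd8 was at 46.4, 56.8, 66.1, 54.6 and 64.6 FPKM in the kidneys and 0.569, 0.617, 0.454, 1.61 and 0.925 FPKM in the hearts (5.50 ± 0.18). Hoxa9 and Hoxa10 averaged 13.3 ± 1.59 and 14.6 ± 1.52 FPKM in kidney and 0.011 ± 0.0246 and 0.0335 ± 0.0347 FPKM in heart. Hoxc9 and Hoxa11, at 2.38, 2.66, 3.51, 2.96 and 2.22 and 2.41, 2.26, 2.35, 2.38 and 2.42 FPKM in the kidneys, were at 0 in all 5 hearts. The smallest difference was that of the anterior gene Hoxa3, at 1.59 ± 0.19, with 0.176, 0.358, 0.0977, 0.367 and 0.819 FPKM in the hearts. Its call was lost under 7 alternatives, among them pseudocount 1 and leaving out any one rat except RB034. Its call was lost without any 1 of the rats RB030, RB031, RB032 and RB033 (1.43 to 1.63).

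**Figure D2:**
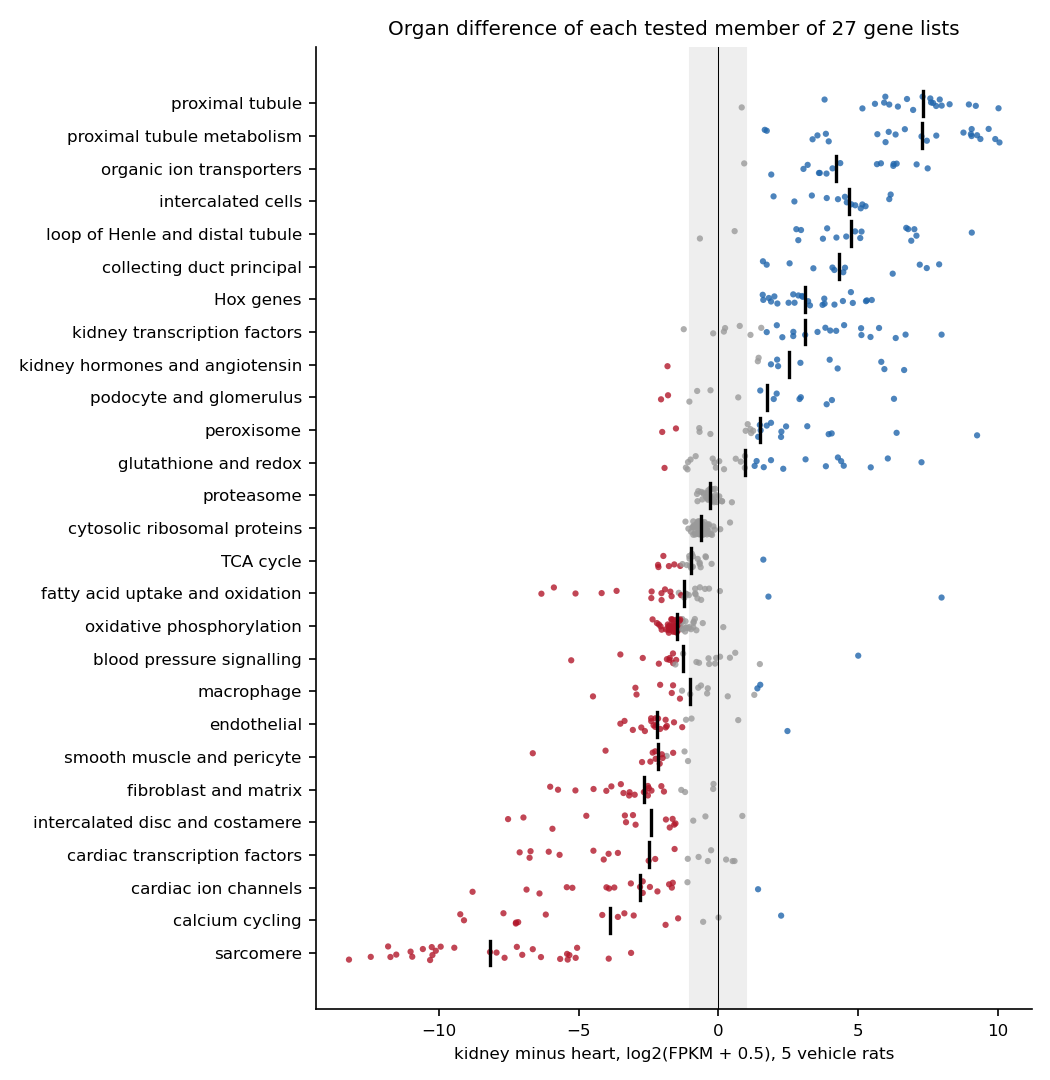
Difference between kidney and heart in log2(FPKM + 0.5) for each tested member of 27 gene lists, with blue points past the 2-fold test in kidney, red points past it in heart, grey points not past it, and a black bar at the list median. The grey band spans -1 to 1. Tubule lists lie to the right, with a median of 7.32 for proximal tubule transport, and sarcomere genes to the far left, with a median of -8.17.

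On the heart side the sarcomere came first. All 29 listed genes were higher in the heart, with a median of -8.17 and a range of -13.22 to -3.12. Actc1, cardiac alpha actin, had the largest difference of any gene: 0.0961, 0.0645, 0.102, 0.0473 and 0.551 FPKM in the kidneys and 7804, 6262, 6282, 5200.4 and 5806 FPKM in the hearts, or -13.22 ± 0.17 (adjusted p = 1.44e-09). Tnni3 and Tnnt2, the troponin subunits of the thin filament switch, were at 3381, 4273, 4299.9, 2677 and 2952 and 3365, 3280.1, 3354, 2263 and 2507 FPKM in the hearts, and the highest kidney value of the 2 genes was 0.544 FPKM. Myh6 and Myh7, the fast and slow myosin heavy chains, were at 1308, 2258, 2344, 1242 and 2061 FPKM and 869.7, 738, 474, 476 and 640.3 FPKM in the hearts. Myh7, the form known to increase in loaded rodent hearts, was below Myh6 in every heart. Myl2 and Myl3, the ventricular light chains, averaged 1833 ± 457 and 1970.3 ± 454 FPKM in heart and 0.106 ± 0.0631 and 0.474 ± 0.114 FPKM in kidney (SD, n = 5). Ttn, the giant spring protein gene, differed by -5.66. The smallest difference was that of Nebl (-3.12 ± 0.13), a thin filament anchor, which averaged 2.94 FPKM in kidney and 30.2 FPKM in heart. Cryab, a small heat shock protein that epithelia also make, was present in both organs, at 31.1, 111, 47.2, 55.2 and 94.4 FPKM in the kidneys and 2623, 2276, 2186, 1773 and 1861 FPKM in the hearts.

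Genes of calcium cycling and of the action potential were also mostly higher in the heart, 13 of 16 and 17 of 19. Casq2, the calcium store protein of the sarcoplasmic reticulum, was at 0.121, 0.123, 0.16, 0.136 and 0.112 FPKM in the kidneys and 373, 476, 442, 291 and 346 FPKM in the hearts (-9.24 ± 0.11). Ryr2, the release channel, averaged 0.097 ± 0.0364 and 85.9 ± 13.5 FPKM. Atp2a2, the reuptake pump, which other cells use in the endoplasmic reticulum, was higher in heart from a higher base, at 60.3, 83.6, 62.1, 70.6 and 94.3 FPKM in the kidneys and 1238, 1549.5, 1559, 996 and 1288 FPKM in the hearts (-4.15 ± 0.14). Kcnip2, a subunit of the transient outward potassium channel, differed by -8.80 ± 0.10, with 302, 256, 303, 188 and 228 FPKM in the hearts. Each list had 1 gene higher in the kidney, Fkbp1b, a binding protein of release channels (2.25), and Kcne1, a potassium channel subunit (1.42), whose call was lost without RB031, RB032 or RB034 (1.34 to 1.42), with pseudocount 1 (0.97) and with quantile normalization (1.21). Without the 3 atrial-marked rats it was lost too, and the heart counts were 12 of 16 and 13 of 19. S100a1, a calcium sensor abundant in heart muscle, had overlapping values, at 15, 16.2, 18.9, 15.9 and 16.4 FPKM in the kidneys and 14.6, 18.5, 17.1, 15.1 and 16.6 FPKM in the hearts (0.01 ± 0.08).

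The hormones of the loaded ventricle were present in every heart. Nppa, which encodes atrial natriuretic peptide, was at 3022, 2025, 429, 6698 and 3354 FPKM in the hearts and 0.142, 0, 0.0313, 0 and 0.04 FPKM in the kidneys, a difference of -12.03 ± 0.48. It was lowest in heart RB032 and highest in RB033. Nppb, which encodes the B-type peptide, was at 444, 188, 205, 348 and 318 FPKM in the hearts and at 0 in all 5 kidneys, which makes it at least 2854-fold higher against a floor of 3 fragments per kidney library. Atrial muscle makes both hormones, and 3 of the hearts held atrial transcripts. Without those 3 animals the difference of Nppa was -10.93, still past the 2-fold test, and Nppb was at 444 and 205 FPKM in hearts RB030 and RB032, the 2 left. Sln (sarcolipin), another atrial transcript, was at 40.3, 435, 54.8, 1742 and 919 FPKM in the hearts and at 0 in the kidneys. It was lowest in hearts RB030 and RB032. Ankrd1 and Acta1, a stretch-sensitive nuclear protein gene and skeletal actin, were at 2278, 1299, 1459, 1541 and 1546 FPKM and 1998, 842, 882, 1493 and 1441 FPKM in the hearts, both highest in RB030. Of the load list as a whole, 10 of 16 genes were higher in the heart and 3 in the kidney. The 3 were the metallothioneins Mt2A, at 1789, 1653, 1665, 1505 and 1380.3 FPKM in the kidneys and 103, 50.5, 38.8, 41.9 and 48.8 FPKM in the hearts, and Mt1, with 219 FPKM in kidney and 15 FPKM in heart, and the stress cytokine Gdf15, with 13 FPKM in kidney and 0.718 FPKM in heart.

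Junction and membrane anchor genes of cardiomyocytes were higher in the heart for 13 of 16, and for 8 with equal FPKM sums. Nrap and Cav3, muscle-specific anchors, averaged 0.00304 FPKM in kidney and 92.7 FPKM in heart, and 0.11 FPKM in kidney and 76.6 FPKM in heart. Genes that epithelia share were closer, such as Dsp (desmoplakin) at -3.30 ± 0.13, Jup (plakoglobin) at -0.90 ± 0.07 and Ilk (integrin-linked kinase) at -0.46 ± 0.07, the last 2 not past the 2-fold test. Among transcription factors of heart muscle, 12 of 19 were higher in the heart. Nkx2-5 was at 68.2, 70.9, 71.8, 65.7 and 66.8 FPKM in the hearts and at 0 in all 5 kidneys, at least 845-fold higher against the floor of 3 fragments. Gata4 and Hand2, which act with it in the cardiac lineage, averaged 34.2 ± 2.9 and 55.2 ± 5.52 FPKM in heart and 0.0161 ± 0.0227 and 0.0287 ± 0.0642 FPKM in kidney (SD, n = 5). Tbx20 and Tbx5 were at 0 in every kidney. Not past the 2-fold test were factors of energy metabolism common to both organs: Esrrg averaged 13 FPKM in kidney and 10.5 FPKM in heart, and Ppargc1a, a coactivator for mitochondrial genes, 12.1 FPKM in kidney and 8.07 FPKM in heart. Irx5, listed as cardiac, averaged 3.89 FPKM in kidney and 4.68 FPKM in heart (-0.26 ± 0.08).

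Promoter sequences were available for 9787 of the 13673 tested genes, matched by symbol to RefSeq (build GRCr8) as windows from 250 bases before to 50 bases after the start of the gene. The 200 genes with the largest difference in each direction and a promoter were searched on both strands for short motifs. These were the HNF4 motif, the muscle promoter elements MEF2, MCAT and CArG box, and TATA, GC box and NRF1. Motifs of the other factors named above were not searched. For each of 5 motifs 1 promoter is shown to let the letters be read. Matches of the MEF2 motif, the A/T-rich element of muscle promoters, were in 14.5% of the 200 heart promoters, 1.5% of the 200 kidney promoters and 1.57% of all tested ones. The HNF4 motif (CAAAGTC) was in 8.5% of kidney promoters, 1.0% of heart promoters and 3.45% of all. MCAT (CATTCCT), read by TEAD factors, was in 8.0% of heart, 3.0% of kidney and 3.8% of all promoters, and the CArG box, read by serum response factor, in 3.5%, 1.5% and 1.29%. Both organ sets held TATAAA more often (18.5% in heart, 16.5% in kidney) than all tested promoters (6.86%) and the GC box GGGCGG less often (40.5% and 30% against 61.9%). GCGCANGCGC, the NRF1 motif, was in 0.5% of heart promoters, none of the kidney promoters and 9.68% of all. Over all 27457 promoters of the RefSeq table the shares were 3.37% for MEF2, 4.54% for HNF4, 5.08% for MCAT, 1.64% for CArG, 14.3% for TATAAA, 34.9% for GGGCGG and 4.71% for NRF1. The organ sets were less GC-rich (median 52.8% in kidney, 56.7% in heart, 61.0% in all tested), which bears on how often A/T-rich and GC-rich letters match. A MEF2 match can hold the letters TATAAA, so the 2 motifs may overlap. These are counts of letters in 1 window per gene and no test was made on them.

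For each of 5 motifs (all but the GC box and NRF1) the gene with the largest difference that carries it within 170 bases upstream of its start was taken, and no gene was used more than once. The 170 bases are printed 5′ to 3′ on the gene's strand, ending at the base before the start, with the motif named on each line in capitals. The positions of the 5 stretches in GRCr8 are, in the order printed, chr17:9238984-9239153 (minus strand), chr1:192219717-192219886 (minus strand), chr8:119616924-119617093 (plus strand), chr13:49818953-49819122 (plus strand) and chr5:163712014-163712183 (plus strand).
Slc34a1, HNF4 motif on the opposite strand: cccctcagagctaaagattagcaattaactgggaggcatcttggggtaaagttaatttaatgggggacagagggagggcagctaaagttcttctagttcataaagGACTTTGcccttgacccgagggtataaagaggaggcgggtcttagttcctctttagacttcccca
Cox6a2, MEF2 motif: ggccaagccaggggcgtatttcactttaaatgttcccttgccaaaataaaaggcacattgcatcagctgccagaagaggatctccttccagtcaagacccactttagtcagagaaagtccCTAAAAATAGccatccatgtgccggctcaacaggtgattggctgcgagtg
Myl3, CArG box: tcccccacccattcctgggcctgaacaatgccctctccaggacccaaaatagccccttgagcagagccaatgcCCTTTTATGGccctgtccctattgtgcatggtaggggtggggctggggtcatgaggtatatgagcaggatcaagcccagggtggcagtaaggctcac
Tnnt2, MCAT motif: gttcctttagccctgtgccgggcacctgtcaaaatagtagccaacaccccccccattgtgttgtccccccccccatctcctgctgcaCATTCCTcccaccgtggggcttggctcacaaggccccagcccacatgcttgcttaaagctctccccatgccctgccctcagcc
Nppa, TATA motif: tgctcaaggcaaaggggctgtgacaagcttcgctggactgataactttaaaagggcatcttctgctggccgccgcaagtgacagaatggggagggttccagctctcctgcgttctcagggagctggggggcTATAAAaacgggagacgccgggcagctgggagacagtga
The stretch of Slc34a1 also holds TATAAA and that of Myl3 also holds CATTCCT, both left in lower case. The motif of Nppa begins 39 bases before the start and that of Cox6a2, a muscle-type cytochrome oxidase subunit, 50 bases before it. The CArG box of Myl3 lies farthest upstream of the 5, at 97 bases.

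**Figure D3:**
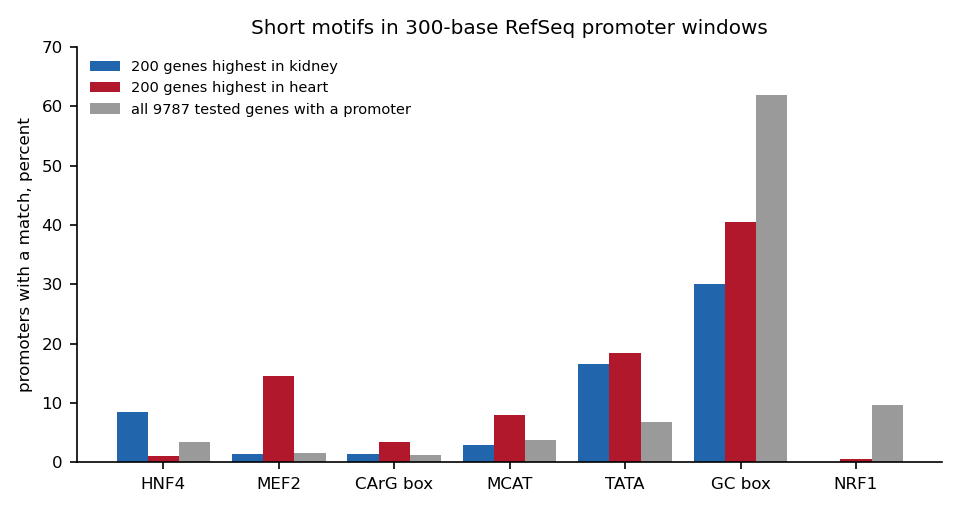
Share of RefSeq promoter windows of 300 bases (percent) with at least 1 match on either strand to 7 motifs, for the 200 genes of largest difference in kidney (blue) and heart (red) and all 9787 tested genes with a promoter (grey). MEF2 stands out in the heart bars at 14.5% against 1.57% of all, and GC boxes are less frequent in both organ sets than in all genes.

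Energy metabolism differed in amount for the mitochondrion and in kind for fuels. Mitochondrially encoded mRNAs were the most abundant transcripts of both organs. Mt-co1, a cytochrome oxidase subunit, was at 22389, 29029.6, 34213, 29436 and 30138 FPKM in the kidneys and 73129.7, 96704, 99315, 57729 and 72908 FPKM in the hearts, and the lowest heart was above the highest kidney. The difference of -1.45 ± 0.24 did not pass the 2-fold test (adjusted p = 0.167), and 3 of the 13 mitochondrial protein genes did. Mt-co1 did pass it with no variance trend, with a robust prior and with voom, the difference staying near -1.44. Quantile normalization gives the most abundant gene the same value in every library, so that the difference of Mt-co1 is 0 there. Of the nuclear-encoded subunits of the respiratory chain and ATP synthase, 35 of 55 were past the 2-fold test in the heart and none in the kidney, with a median of -1.49. With equal FPKM sums the median was -0.84 and 6 genes passed, so the direction held and the size depended on the scale. Uqcrq, a subunit of complex III, was at 267, 438, 402, 323 and 386 FPKM in the kidneys and 1557, 1773, 1949.5, 1444 and 1539 FPKM in the hearts (-2.20 ± 0.12). Atp5f1b, the catalytic subunit of ATP synthase, was closer, at 1286, 2000.3, 1631, 1589.6 and 1889 and 2944, 3219.9, 3287, 2524 and 2929 FPKM (-0.84 ± 0.14, not past 2-fold). In the citric acid cycle, 6 of 24 genes were higher in the heart, against 13.7% of all genes. With equal FPKM sums 3 were, against 1221 of all 13673 genes. The 6 were led by Cs (citrate synthase) at -2.16 ± 0.12 and Idh2 at -2.14 ± 0.13. The only gene higher in the kidney was Suclg2 (1.61), the GTP-forming subunit of succinate-CoA ligase.

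Fatty acid genes divided by compartment. Of 29 genes of uptake and mitochondrial oxidation, 13 were higher in the heart and 2 in the kidney, with a median of -1.21. With equal FPKM sums the counts were 10 and 2 and the median -0.57, so the size depended on the scale. Lpl, the lipase that frees fatty acids from lipoproteins, was at 18.9, 10, 12.3, 13.2 and 10.8 FPKM in the kidneys and 456, 617, 575, 296 and 414 FPKM in the hearts (-5.11 ± 0.21), and Fabp3, the heart fatty acid binding protein, at 50, 60.6, 69.7, 65.5 and 68.1 and 1059, 1496, 1578, 742 and 1019 FPKM (-4.18 ± 0.17). Acadl, a long-chain acyl-CoA dehydrogenase, averaged 109 FPKM in kidney and 576 FPKM in heart. The 2 kidney genes were Slc27a2, an acyl-CoA synthetase of peroxisome and plasma membrane, with 160.5 FPKM in kidney and 0.122 FPKM in heart (8.00 ± 0.16), and Cpt1a, described below. Peroxisomal genes went the other way, 13 of 23 higher in the kidney and 2 in the heart (median 1.49). Ehhadh, the bifunctional enzyme of peroxisomal oxidation, was at 25.4, 51.7, 39.2, 33.8 and 48.2 FPKM in the kidneys and 1.45, 2.98, 3.05, 1.55 and 1.53 FPKM in the hearts (3.95 ± 0.15), and Acaa1b, its thiolase, averaged 50.8 FPKM in kidney and 0.111 FPKM in heart. Phyh, which acts in the breakdown of phytanic acid, was one of the 2 exceptions, with 171 FPKM in kidney and 692 FPKM in heart. Ketone body and branched chain genes were close to even, with 2 of 17 higher in kidney and 1 in heart, against 14.8% and 13.7% of all genes. Bdh1 and Oxct1, which act in the use of ketone bodies, averaged 12.5 FPKM in kidney and 34.9 FPKM in heart, and 265 FPKM in kidney and 521 FPKM in heart. Oxct1 was not past the 2-fold test, and Bdh1 was not past it without RB030 (-1.35) or RB032 (-1.34). With equal FPKM sums Bdh1 was at -0.83 and not past it, and the counts of the list were 4 in kidney and 0 in heart. On that scale 3442 and 1221 of all 13673 genes were past it, so the kidney count of the list is near the share of all genes. The call of Bdh1 was also lost with no filter on low values.

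Genes of glutathione and redox defence were mixed, with more in the kidney. Of 28 tested, 13 were higher in the kidney and 1 in the heart. Gclc, the rate-limiting enzyme of glutathione synthesis, was at 219.7, 1521, 816, 683 and 1772 FPKM in the kidneys and 13.3, 8.63, 8.8, 12.1 and 15.9 FPKM in the hearts (6.07 ± 0.43). Its partner Gclm and the second enzyme Gss differed by 4.4 and 4.28, and Ggt1, which breaks glutathione down at the brush border, by 7.28 ± 0.18. Gpx3, the peroxidase that kidney secretes into plasma, was at 1697, 2059.5, 2164, 1954 and 1879 and 77.1, 74.5, 67.8, 128 and 93.4 FPKM. Enzymes that remove peroxide or superoxide were on both sides of the test. Among the 14 genes not past it, Gpx1 averaged 900.1 FPKM in kidney and 881 FPKM in heart, Prdx3 117 FPKM in kidney and 207 FPKM in heart and Sod2 77.9 FPKM in kidney and 169 FPKM in heart. Past it in the kidney were Cat, with 377 FPKM in kidney and 100 FPKM in heart, Sod1, with 279 and 106 FPKM, and Sod3, with 194 and 65.3 FPKM. Without the 3 atrial-marked rats the kidney count of the list was 11, and Cat, Sod1 and Sod3 were not followed singly there. The gene past the 2-fold test in the heart was Nqo1, a quinone reductase, with 1.88 FPKM in kidney and 8.49 FPKM in heart.

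Some related genes traded places. Among 48 pairs of genes of one family or matched function in which both members were in the table, 18 had the first member past the 2-fold test in the kidney and the second past it in the heart, and no pair had the reverse. The pairs were drawn up with the muscle-type or cardiac member in second place, so this direction was part of their choice. Fxyd1 (phospholemman) and Fxyd2, small regulators of ion pumping, traded fully: Fxyd1 held 0.575 ± 0.181% of the pair's FPKM in kidney and 95.1 ± 2.17% in heart (SD, n = 5). For ADP/ATP exchange across the mitochondrial membrane, Slc25a4 was at 148, 176, 167, 157 and 178 FPKM in the kidneys and 2847, 3378, 3404, 2111 and 2511 FPKM in the hearts, a share of 21.7 ± 1.54% and 94.2 ± 0.555% of its sum with Slc25a5. Without the 3 atrial-marked rats Slc25a5 was not past the 2-fold test (1.54), so that the pair then had a call in the heart only. For fatty acid entry into mitochondria, Cpt1a was at 46.1, 68.3, 51.9, 55.7 and 60 FPKM in the kidneys and 12.8, 21, 16.5, 13.4 and 16.2 FPKM in the hearts, and Cpt1b at 2.03, 2.13, 2.36, 1.51 and 2.24 and 139, 171, 173, 117 and 155 FPKM. The muscle form Cpt1b held 3.57 ± 0.747% and 90.4 ± 1.05%.

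Some steps of glucose handling showed the same exchange. Slc2a2, the liver-type glucose transporter, was at 42.2, 31.7, 32.3, 39.4 and 32.3 FPKM in the kidneys, and Slc2a4, the insulin-responsive one, at 109, 144, 147, 82.6 and 101 FPKM in the hearts, where it held 99.99 ± 0.0157% of the pair against 2.58 ± 0.557% in kidney. Pygm, the muscle glycogen phosphorylase, held 6.19 ± 2.38% in kidney and 99.1 ± 0.331% in heart against Pygl. Pkm held 54.5 ± 8.91% of pyruvate kinase transcripts in kidney, where Pklr was at 16.7, 48, 29.1, 31.7 and 37.9 FPKM, and 99.98 ± 0.0157% in heart. For mitochondrial creatine kinase, Ckmt2 was at 597, 805, 853, 449 and 585 FPKM in the hearts and at 0 in all kidneys, at least 18500.1-fold higher against the floor of 3 fragments, while Ckmt1 averaged 18.9 FPKM in kidney and 0.0994 FPKM in heart. Most pairs did not exchange by this rule, among them hexokinase, phosphofructokinase, phosphoglycerate mutase, fructose bisphosphatase and glycogen synthase. The rule needs a call for both members, and shares could shift without it. Pgam2 held 2.66% of its sum with Pgam1 in kidney and 76.8% in heart, and Pfkm 33.9% and 84.7% of its sum with Pfkl. In 44 of the 48 pairs the second member's share was higher in every heart than in any kidney, and in 1 pair lower. Ldha and Ldhb, the lactate dehydrogenase subunits, were both higher in the heart (-2.23 and -2.47), and the share of Ldhb was 79.5 ± 1.36% in kidney and 82.2 ± 1.28% in heart. Hsd11b1 and Hsd11b2, which activate and inactivate glucocorticoids, were both higher in the kidney (2.61 and 7.21). Cox6a1, the general form of a cytochrome oxidase subunit, averaged 577 FPKM in kidney and 329 FPKM in heart and was not past the 2-fold test except with equal FPKM sums (1.45), while Cox6a2 went from 0.361 ± 0.205 FPKM in kidney to 2152 ± 460.1 FPKM in heart. A like pattern was seen for the ribosomal gene Rpl3, with 168 FPKM in kidney and 127 FPKM in heart, and its muscle form Rpl3l, with 0.0234 FPKM in kidney and 115 FPKM in heart.

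**Figure D4:**
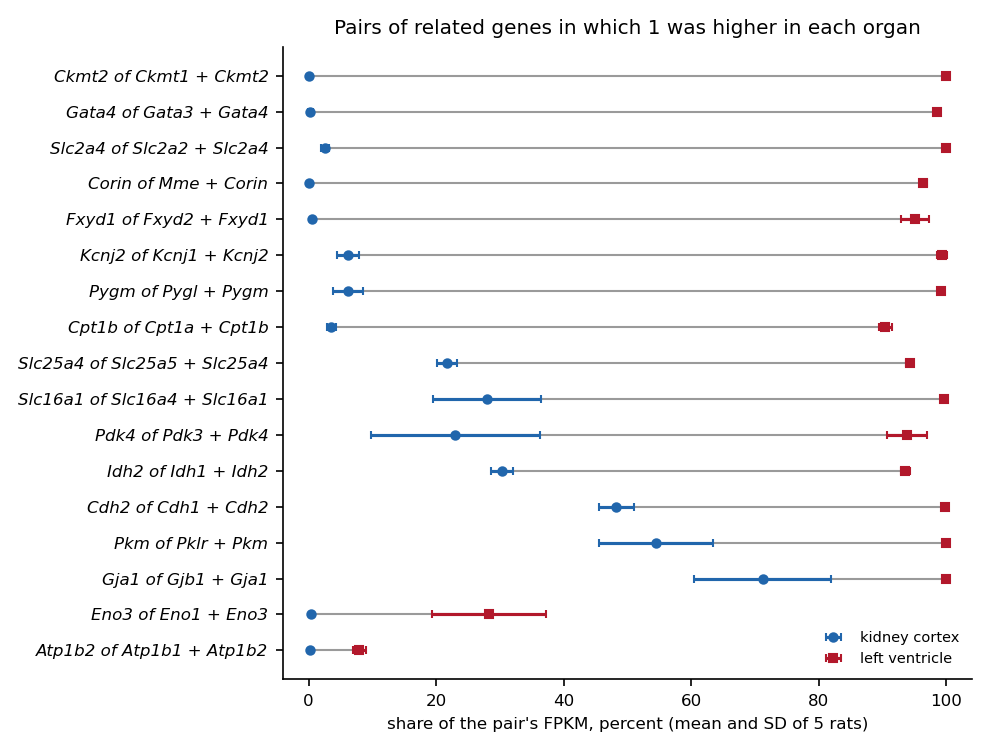
Share of each pair's summed FPKM (percent, mean and SD of 5 rats) held by the first gene named in each row, in kidney cortex (blue circles) and left ventricle (red squares), for 17 of the 18 pairs with 1 member higher in each organ. Ckmt2 goes from 0% to 99.98% and Cpt1b from 3.57% to 90.4%.

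Genes of vessels and connective tissue were higher in the heart as groups. In bulk tissue, fewer cells of a type and less RNA per cell cannot be told apart, and this holds for every list here. Of 22 endothelial genes, 18 were higher in the heart and 1 in the kidney (median -2.19), or 12 and 1 with equal FPKM sums (median -1.62). Cdh5, the cadherin of endothelial junctions, was at 7.83, 4.82, 6.45, 6.08 and 3.82 FPKM in the kidneys and 57.6, 57.1, 69.9, 66.5 and 62 FPKM in the hearts (-3.36 ± 0.14), and Pecam1 at 16.5, 11.7, 15.5, 13.4 and 11.3 and 73.5, 65.2, 64.5, 91.2 and 76.6 FPKM (-2.40 ± 0.12). The exception was Plvap, which forms the diaphragms of fenestrated capillaries, with 28.9 FPKM in kidney and 6.03 FPKM in heart (2.48). Fibroblast and matrix genes were higher in the heart for 19 of 23, or 17 with equal FPKM sums. Among them were Col1a1 and Col3a1, the fibrillar collagens of scar, and Lum (lumican) at -6.02 ± 0.19. Col1a1 averaged 18.6 FPKM in kidney and 181 FPKM in heart, and Col3a1 50.4 FPKM in kidney and 527 FPKM in heart. Hearts RB033 and RB034 carried valve-type matrix genes, so these counts were repeated without the 3 atrial-marked animals: 18 of 23 matrix genes and 14 of 22 endothelial genes were past the test in the heart. Tcf21 and Pdgfra, which mark resident fibroblasts of both organs, were not past it (-0.17 ± 0.16 and -0.18). Of 14 smooth muscle and pericyte genes, 11 were higher in the heart, or 7 with equal FPKM sums, led by Des (desmin), which cardiomyocytes also make, and Rgs5, a pericyte gene, at 13.7, 10.4, 14.6, 11.5 and 13.4 and 219, 179, 232, 243 and 208 FPKM.

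Macrophage genes were mixed. Of 17 tested, 7 were higher in the heart and 2 in the kidney. The heart count was 3 with equal FPKM sums and 4 without the 3 atrial-marked animals. Cd163, a scavenger receptor of resident macrophages, was at 0.0838, 0.0536, 0.0237, 0.0368 and 0.0404 FPKM in the kidneys and 16.8, 8.54, 9.48, 12.7 and 12.9 FPKM in the hearts (-4.49 ± 0.14), and Mrc1 (the mannose receptor) at 4.54, 1.38, 1.34, 2.12 and 0.881 and 24.5, 13, 12.5, 21.4 and 18.7 FPKM (-2.97 ± 0.19). Other macrophage genes did not pass the 2-fold test, such as Lyz2 (lysozyme) with 125 FPKM in kidney and 99.2 FPKM in heart, and Adgre1 (F4/80) with 5.97 FPKM in kidney and 8.07 FPKM in heart. T and B cell genes were low, only 6 of 14 passing 1 FPKM in either organ and none past the 2-fold test. Of 5 red cell genes, 4 were higher in the heart, while Slc4a1, an anion exchanger that intercalated cells also make, was higher in the kidney (1.98). Hba-a2, an alpha globin, was at 42.2, 4.67, 6.98, 18.2 and 2.57 FPKM in the kidneys and 749, 215, 645, 477 and 705 FPKM in the hearts (-5.69 ± 0.48). Globin genes are near-identical copies, so reads may be split among them. Markers of mesothelium and fat were uneven within the hearts. Msln (mesothelin) was at 1.52, 3.86, 3.17, 17.5 and 18.3 FPKM in the hearts and Adipoq, an adipocyte hormone, at 0, 2.81, 0.0671, 0.406 and 18.1 FPKM, against 2.77, 3.6, 3.79, 3.69 and 3.15 FPKM in the kidneys. Without the 3 atrial-marked animals Msln differed by -2.33 in place of -3.36, and Adipoq by 2.81, past the 2-fold test in the kidney direction, in place of 1.16, not past it. The adipocyte list as a whole lay on the heart side. Of its 10 tested genes, 5 were past the test in the heart and 1 in the kidney (median -2.08). Without those animals the counts were 5 and 2 of 9 (median -2.84).

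Genes of blood pressure control were distributed over both organs. Of 12 genes of kidney hormones and the angiotensin system, 9 were higher in the kidney and 1 in the heart. Agt (angiotensinogen) averaged 28.4 FPKM in kidney and 1.24 FPKM in heart, and Agtr1a, the main angiotensin receptor, was at 12.3, 11.2, 16.5, 15.6 and 10.8 FPKM in the kidneys and 1.08, 1.4, 1.37, 1.29 and 1.23 FPKM in the hearts (2.94 ± 0.11). The heart gene was Ace, bound to endothelium and brush border, at 1.93, 2.6, 1.31, 2.09 and 2.54 FPKM in the kidneys and 7.9, 8.5, 6.13, 10.8 and 9.85 FPKM in the hearts (-1.82 ± 0.10, and -1.32 and not past the test with equal FPKM sums), while Mme (neprilysin), which breaks down natriuretic peptides, was at 30.2, 105, 63.8, 64.9 and 119 and 0.604, 0.796, 0.627, 0.862 and 0.722 FPKM. Corin, the protease that activates atrial natriuretic peptide, was at 0.0154, 0.00863, 0.0102, 0.019 and 0.013 FPKM in the kidneys and 15.2, 24.1, 20.1, 23.2 and 15.3 FPKM in the hearts (-5.26 ± 0.13). Among 23 genes of endothelin, nitric oxide, natriuretic peptide and adrenergic signalling, 10 were higher in the heart and 1 in the kidney. The heart count was 6 with equal FPKM sums and 6 without the 3 atrial-marked animals. The kidney gene was Adra2b, an alpha-2 adrenergic receptor, at 20.6, 32.8, 27.6, 31.5 and 34.5 and 0.569, 0.187, 0.453, 0.489 and 0.416 FPKM (5.01 ± 0.17). Adra1b, an alpha-1 receptor, averaged 3.69 FPKM in kidney and 27.1 FPKM in heart, Adrb1, the main cardiac beta receptor, 1.55 FPKM in kidney and 6.29 FPKM in heart (not past the test with equal FPKM sums, -1.27), and Nos3, the endothelial nitric oxide synthase, 2.39 FPKM in kidney and 31.5 FPKM in heart. Guanylate cyclase subunit Gucy1a1, the receptor for nitric oxide, differed by 0.06 ± 0.23.

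Neither steroid receptor passed the 2-fold test, but the enzymes around them did. Nr3c1, the glucocorticoid receptor, averaged 6.64 FPKM in kidney and 7.21 FPKM in heart (-0.11 ± 0.08). Hsd11b2, which keeps glucocorticoids off the mineralocorticoid receptor in the collecting duct, was at 114, 123, 144, 125 and 111 FPKM in the kidneys and 0.531, 0.421, 0.107, 0.612 and 0.117 FPKM in the hearts (7.21 ± 0.17). Sgk1, a kinase induced by both steroids, was at 95.7, 46.8, 79.6, 74 and 43.6 and 24.2, 14.4, 16.4, 22.8 and 19.9 FPKM (1.73 ± 0.15), and Zbtb16, a glucocorticoid target, was higher in the heart, at 6.41, 4.79, 0.697, 3.05 and 6.13 and 17.6, 23.1, 3.94, 14.3 and 26.9 FPKM (-1.91 ± 0.12). Zbtb16 was not past the test in the fit without the replicate block, nor with equal FPKM sums (-1.38). Complement and coagulation genes were on both sides, 7 of 27 higher in the kidney and 8 in the heart, the latter 5 with equal FPKM sums. Plau (urokinase) averaged 232 FPKM in kidney and 2.76 FPKM in heart, and C5 27 FPKM in kidney and 0.0208 FPKM in heart, whereas Thbd (thrombomodulin), the endothelial anticoagulant, averaged 5.88 FPKM in kidney and 39.5 FPKM in heart and Cfd (adipsin) 0.992 FPKM in kidney and 25.9 FPKM in heart.

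The listed genes of protein synthesis and breakdown differed little. None of 59 listed cytosolic ribosomal protein genes and none of 31 proteasome genes was past the 2-fold test, by limma with the deposited scale or with any of the other scalings tried. The list leaves out Rpl3l, the muscle form described above, which was past the test in the heart. So was Eef1a2, an elongation factor of protein synthesis outside both lists. At any size, 55 ribosomal genes were higher in the heart and 1 in the kidney, with a median of -0.61, but with equal FPKM sums the counts were 4 and 9 and the median 0.04. For the proteasome the median went from -0.29 to 0.36, a change of sign, so neither list has a direction that holds on both scales. Rplp0, a ribosomal stalk protein, averaged 504 FPKM in kidney and 767 FPKM in heart, and Psmb5, a catalytic proteasome subunit, 90.3 FPKM in kidney and 118 FPKM in heart. Many ribosomal genes have near-identical copies among which the authors' counting could split reads.

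Some genes varied between animals alike in both organs. Dbp, a clock output gene that swings with the time of day, was at 31.7, 69.4, 59.3, 49.6 and 89.4 FPKM in the kidneys and 25.5, 63.6, 53.7, 38.2 and 72.8 FPKM in the hearts. The rats took the same order in both organs, from RB030, the lowest, to RB034, the highest, and the organ difference was 0.25 ± 0.08. Irx5 was at 1.77, 5.43, 3.87, 3.32 and 5.04 and 2.63, 6.85, 4.33, 3.84 and 5.77 FPKM, again with 1 order in both organs. Zbtb16 was lowest in RB032 in both, as was Fkbp5, another glucocorticoid target, at 30.3, 28.7, 8.6, 21 and 24.8 FPKM in the kidneys and 22.5, 14.5, 7.75, 18.7 and 18.5 FPKM in the hearts. Nr4a1, an immediate early gene, was at 11.8, 4.5, 11.4, 16.1 and 8.66 and 12.3, 5.09, 8.69, 16.2 and 10.7 FPKM, lowest in RB031 and highest in RB033 in both. Hmox1 was highest in RB030 in both, at 80.6, 13.8, 17.9, 24.3 and 18.9 FPKM in the hearts. These genes were picked for their values, and times of tissue collection are not given in the sources used here.

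Within the kidneys, some tubule genes, picked for their values, varied together. Slc7a13 and Slc7a12, amino acid carriers of the late proximal tubule, were at 79.8, 917, 406, 364 and 859.7 FPKM and 2.6, 78.1, 23.2, 22.4 and 83.8 FPKM. Cyp2c11, a steroid hydroxylase, was at 3.11, 38.2, 19.4, 14.6 and 48.7 FPKM and Slc22a7, an organic anion transporter, at 0.659, 8.23, 4.02, 4.3 and 12.8 FPKM. In each of them RB030 was lowest and RB031 and RB034 were the 2 highest, which also held for Gclc, Umod, Slc22a2 and Slco1a6. It held for the summed proximal tubule genes and the summed loop and distal tubule genes too. Principal cell genes did not follow it, with sums of 622, 666, 627, 611 and 582 FPKM, nor did intercalated cell genes, at 351, 407, 443, 411 and 394 FPKM. Slc2a2 was highest in kidney RB030 and Slc12a3 lowest in RB034. Kidney RB030 was highest for Hmox1, Havcr1 and Hba-a2. Some lists of cells outside the tubule took the opposite order: fibroblast and matrix genes summed to 772 FPKM in kidney RB030, 436 in RB031 and 384 in RB034. Macrophage genes summed to 349, 212 and 190.4 FPKM and smooth muscle and pericyte genes to 175, 92 and 105 FPKM in the same kidneys, with RB030 the highest of the 5 and the other 2 the lowest. Their part in the pattern was not tested. Across the 10924 genes at 1 FPKM or more in both organs, the median SD between animals was 0.155 in kidney and 0.158 in heart (log2), and 46 and 52 genes had an SD over 1. In the hearts those genes were led by the atrial and matrix genes named above, with Myl4, the atrial essential light chain, at 4.95, 239, 2.4, 858 and 539 FPKM and Mybphl at 0.172, 18.5, 0.0764, 62.4 and 43.6 FPKM.

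**Figure D5:**
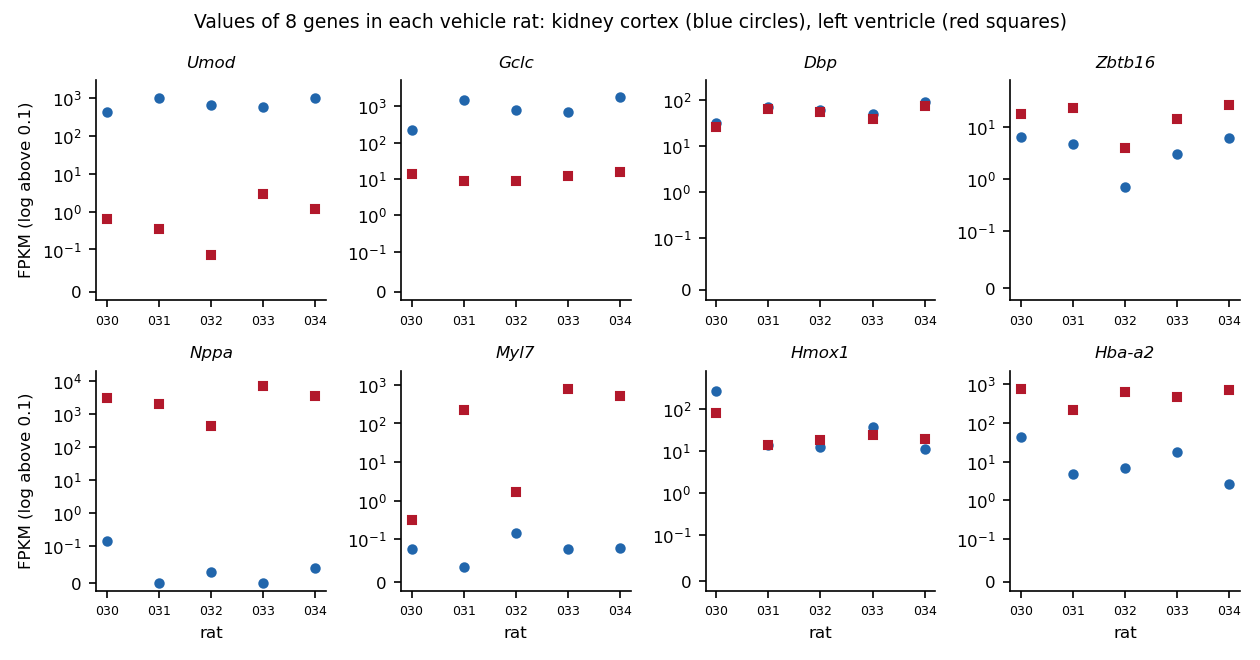
FPKM of 8 genes in each of the 5 vehicle rats (x, rats RB030 to RB034), in kidney cortex (blue circles) and left ventricle (red squares), on an axis that is logarithmic above 0.1 FPKM. Umod and Gclc are far higher in every kidney, Dbp and Zbtb16 follow the rat in both organs, and Myl7 is high in 3 of the 5 hearts.

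Genes abundant in one organ were detected at low levels in the other. The 39 genes with at least 200 FPKM in kidney and at most 1% of that in heart were present in hearts RB030 to RB034 at a median of 0.231%, 0.0599%, 0.0442%, 0.0899% and 0.145% of their kidney level. The 31 genes of the reverse kind were present in the kidneys at medians of 0.00507% to 0.0169% of their heart level. The differences of the most abundant kidney genes are therefore ratios to values of this size. The order of the hearts in these medians was also that of Slc34a1 and Kap in the hearts, with RB030 highest and RB032 lowest. Whether these molecules were in the hearts themselves or entered in handling or sequencing was not tested.

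The same comparison was made in the 5 MaR1 rats, which are other animals. There limma called 2003 genes past 2-fold in kidney (14.6%) and 1846 in heart (13.5%) of 13719. Of the vehicle calls, 1825 (90.4%) in kidney and 1675 (89.2%) in heart were also called in the MaR1 rats, which are 91.1% and 90.7% of the MaR1 calls, and none was called in the opposite direction. Across the 13502 genes in both fits the differences correlated with r = 0.991, and the median gap was 0.113 (log2). Genes are not independent replicates, so that r is a description. In the test of whether the organ difference depends on treatment, limma called 0 of 13673 genes (smallest adjusted p = 0.414), with 715 at an unadjusted p under 0.05. Slc34a1 differed by 8.95 in the MaR1 rats and 10.03 in the vehicle rats, and Cltrn by 7.66 and 9.75. Both genes were chosen for their large values in the vehicle rats. Of the 39 kidney genes followed in the hearts above, also chosen by vehicle values, 35 differed less in the MaR1 rats. Their median difference was 7.95 there and 8.65 in the vehicle rats, and the cause was not tested. The kidney traces in the MaR1 hearts were at medians of 0.149% to 0.470%. On the heart side, Actc1 differed by -13.53 in the MaR1 rats and Tnni3 by -12.46, against -13.22 and -12.44 in the vehicle rats.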

How the data were processed

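Poly-A RNA of kidney cortex and left ventricle was sequenced from 5 vehicle and 5 MaR1 rats. The authors deposited 1 table of FPKM values for 30560 genes in 20 libraries. Per the submitters' processing notes, the tools were fastp, HISAT2 2.0.5, StringTie 1.3.3b and featureCounts 1.5.0-p3. The genome build and the strandedness of the counting are not given in the labels or file headers. Reads of overlapping or antisense genes may be mixed. FPKM times gene length gave whole fragments for 100% of the 371175 values above 0 (within 0.01 fragment), and the deposited scale equals median-of-ratios scaling over the 20 libraries.

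Genes with a mean of at least 1 FPKM in either vehicle organ were fitted with limma 3.58.1 (R 4.3.3) on log2(FPKM + 0.5), with the organ and the animal as terms and a variance trend, so that low genes' differences are understated. The unit was log2 throughout, computed from the deposited FPKM. The 2-fold test is limma's test against a threshold of 1 (log2), with Benjamini-Hochberg adjusted p at 0.05 over all genes tested. Values after ± are the SE for a difference and the SD for a mean. Single measures per library were compared by a 2-sided exact sign-flip test over 5 pairs. Same-numbered samples come from the same animal. Their deviations correlated at 0.0973, 0.0646, 0.0895, 0.12 and 0.0203 over 13673 genes, and the heart of the same rat was the best match for 2 of 5 kidneys. On simulated data for this comparison (10813 genes, 50 at each fold), the 2-fold test called 0% of genes changed 2-fold, 38% at 3-fold, 82% at 4-fold and 96% at 8-fold. There 10613 genes were left unchanged, whereas 28.5% of the measured genes were called. The adjustment was therefore stricter in the simulation, and its shares may be too low for the measured genes. P-values measure the spread between these 5 animals. The floor for a gene at 0 is 3 fragments per library, and floors cover counting error only.

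The gene lists (835 of 865 entries matched), the 50 gene pairs and the comparison itself were chosen with earlier results of these data known. Genes were named by rule: the 20 most abundant in each organ, the 20 with the largest difference in each direction, the genes of the pairs, up to 7 of each list, and the 10 with the largest SD between animals in each organ. Other genes were named after their values were seen. A few genes of these lists are left out and not reported here. Alternatives were other pseudocounts, filters, scalings, variance models and limma's voom on the recovered fragments, a fit without the replicate block, leaving out each animal, and, chosen after seeing the data, scaling to nuclear genes and leaving out the 3 animals whose hearts held atrial transcripts. Figures were drawn with matplotlib 3.10.9 and tables made with pandas 2.3.3 in Python 3.11.15.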

Additional observations from a re-analysis of the deposited data

Results flagged for a closer look

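In 390 sets of 5 libraries (the named genes in each organ), 18 held a highest library farther from the other 4 than Dixon's 95% limit. For normally distributed values that limit flags at most about 1 in 20 sets by chance. The sets share libraries and genes vary together, so the number of flags cannot be set against chance here. The flags below are descriptions only. Of the 18, 7 were in heart RB030, 2 in kidney RB030, 3 in kidney RB032, 3 in kidney RB034, 2 in heart RB034 and 1 in heart RB033.

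In rat RB030, Hmox1 stood apart in both organs, at 271.7 FPKM in the kidney and 80.6 FPKM in the heart. Its heart was also apart for Ankrd1 at 2278 FPKM, Mt2A at 102.9 FPKM and Rplp0 at 920.7 FPKM, and for 3 genes abundant in kidney, namely Acsm2 at 0.7602, Cyp2c23 at 0.8552 and Glyat at 1.52 FPKM. Kidney RB030 was also apart for Nppa at 0.1424 FPKM.

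Kidney RB034 stood apart for 3 genes abundant in heart or around it, Actc1 at 0.5513 FPKM, Hand2 at 0.1435 FPKM and Msln at 0.5823 FPKM, the second being at 0 in the other 4 kidneys. Heart RB034 stood apart for Adipoq at 18.14 FPKM and Plce1 at 8.058 FPKM. Kidney RB032 was apart for Slc4a1 at 31.84, Wt1 at 4.887 and Nebl at 3.198 FPKM, and Nphs1 was also highest in that kidney. Hoxa9 at 0.05503 FPKM in heart RB033 was the only value of that gene above 0 in the hearts.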

How the results depend on the processing

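The counts of genes past the 2-fold test stayed within 1.5 times of 2018 and 1878 in every alternative run except scaling each library to the same FPKM sum, which gave 3442 in kidney and 1221 in heart. Without the replicate block they were 2021 and 1857 (10606 at any size), and 1985 and 1811 of the paired calls were kept. Without each animal in turn the counts lay between 1894 and 2079 in kidney and between 1725 and 1897 in heart. Over 2 pairs, without the 3 rats whose hearts held atrial transcripts, they were 1692 and 1509. With voom on the recovered fragments they were 2273 and 2173.

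Some list medians changed sign. With equal FPKM sums the list medians were 0.514 for ketone and branched chain metabolism (0.008124 with nuclear genes scaled), 0.03886 for ribosomal proteins, 0.3601 for the proteasome, 0.3613 for lymphocytes, 0.1976 for urothelium, 0.2772 for immediate early genes, 0.4392 for the clock and 0.4743 for corticosteroid signalling, all below 0 on the deposited scale. With a mean of at least 5 FPKM the medians of Schwann cells and mesothelium were 0.4978 and 0.9712, over fewer genes, against -1.317 and -1.33. Without the 3 rats those of lymphocytes, urothelium and immediate early genes were 0.2566, 1.755 and 0.162, and urothelium ranged from -0.2797 to 0.1412 as each animal was left out.

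Single genes near 0 changed sign as well. With equal FPKM sums, Adgre1 was at 0.2142, Ilk at 0.1841, Irx5 at 0.3356, Nr3c1 at 0.5158, Nr3c2 at 0.4328, Nr4a1 at 0.605, Pdgfra at 0.4563, Psmb5 at 0.2622, Rplp0 at 0.05172 and Tcf21 at 0.4714. With nuclear genes scaled, Nr3c1 was at 0.02448 and Nr4a1 at 0.1118. With quantile normalization Gucy1a1 was at -0.0145 and S100a1 at -0.05626. Without the 3 rats Gpx1 was at -0.1504, Nr4a1 at 0.162, Pdgfra at 0.4293, Ppara at -0.05737 and Tcf21 at 0.2551. As each animal was left out, Gpx1 ranged from -0.03925 to 0.2031, Gucy1a1 from -0.1389 to 0.2646, Hmox1 from -0.1783 to 0.454, Nr4a1 from -0.1268 to 0.03948, Pdgfra from -0.3554 to 0.04862 and S100a1 from -0.0224 to 0.05928. Apart from the scalings and left-out animals, the cause of these changes was not tested.

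The deposited scale carries no measure of total RNA, so differences below about 1 (log2) depend on how libraries are made comparable. With 5 animals the 2-fold test missed most differences of 3-fold in simulated data. Few genes were changed there, so the adjustment was stricter than for the measured genes. Values under about 0.1 FPKM rest on a few fragments. All animals ate high salt, and both organs were taken as bulk tissue.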
